A study of Homo sapiens with 2 samples.

Results

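The genes described here are 36 protein-coding genes of glucose metabolism and of the response to low oxygen, taken by name from the 58735 genes of the expression table. They comprise 16 glycolytic enzymes, 5 glucose transporters and regulators of glycolysis, 14 other known targets of the hypoxia-inducible factors (HIFs) and HIF1A itself. They were picked by gene name, with no threshold on measured values, though earlier results of these data were known. RNA came from SF-539 cells, a human glioblastoma (GBM) cell line grown in DMEM with 10% serum and labelled as passages 15-18. One culture had been infected with the pGIPZ control lentivirus (shControl) and the other with FKBP9 shRNA lentivirus (shFKBP9), and both had been kept under puromycin to obtain stable clones; how many clones were pooled and how many shRNA constructs the library stands for is not given in the sources used here. There was 1 library per condition, so no difference between the conditions has a replicate check.

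Glycolysis turns glucose into pyruvate in the cytosol and yields ATP without oxygen, and many tumour cells, GBM cells among them, run it at a high rate and pass the pyruvate on to lactate. HIF is a dimer of an oxygen-regulated alpha subunit and a stable beta subunit. When oxygen is present, prolyl hydroxylases mark the alpha subunit for destruction by the VHL ubiquitin ligase, so that HIF is controlled largely at the level of its protein, and when oxygen is low, HIF binds a short DNA core and raises transcription of most glycolytic genes and of genes for blood vessel growth, pH control and mitophagy. Several members are therefore at once enzymes of glycolysis and HIF targets, and the enzymes are kept apart from the other HIF targets below.

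Values are given as FPKM, fragments scaled by the length of the gene and by the size of the library. In all, 18116873 fragments lay on genes in shControl and 17158514 in shFKBP9, and 1 fragment on a gene of 1 kilobase was worth 0.0552 and 0.0582 FPKM. FKBP9, the gene targeted by the shRNA, had 49.8 FPKM in shControl and 4.68 in shFKBP9. The labels call the cells epithelial glioma cells from brain. Of 12 glial and neural markers 2 reached 1 FPKM, SLC1A3 at 8.595 and 9.139 FPKM and NES at 2.355 and 2.169 FPKM. The astrocyte filament gene GFAP stood at 0.196 and 0.140 FPKM and the water channel gene AQP4 at 0. Of 9 epithelial markers 1 reached 1 FPKM, with summed levels of 2.38 and 2.39, whereas 8 of 10 mesenchymal markers did, with sums of 3356 and 3941 FPKM, whose part in the results below was not tested, and endothelial and blood markers had 0 of 5 and 0 of 8. Of 7 keratinocyte markers 1, KRT10, reached 1 FPKM (30.2 and 31.4). The fragments in the libraries numbered 1 and 24 for KRT14, which was called higher, 8 and 17 for KRT5 and 0 and 7 for KRT6A. They numbered 6 and 6 for TP63, 0 and 3 for DSG3 and 0 and 0 for KRT1. The part of these markers in the results was not tested. In bulk RNA, fewer cells of a type and less RNA per cell cannot be told apart.

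The stretch just upstream of a gene's start is where a HIF core would lie closest to the promoter. The 250 bases before the start were searched on both strands for the letters ACGTG and GCGTG, the core that HIF binds, in RefSeq windows of GRCh38.p14. Of the 36 members 32 had an entry (SLC2A3, VEGFA, BNIP3L and NDRG1 had none), and 27 of these (84.4%) held at least 1 of the motifs in at least 1 window. The same was true of 57.3% of 14896 protein-coding genes and of 47.4% of all 27305 genes with a window. By role, 14 of 16 glycolytic enzymes and 9 of 11 other HIF targets held a motif. Counted by window, because genes with several starts have more chances, 35 of 58 member windows (60.3%) held one, against 49.5% of windows of protein-coding genes and 43.2% of all windows. For the glycolytic enzymes alone it was 19 of 36 windows (52.8%), near the share of protein-coding windows, and for the other HIF targets 11 of 14 (78.6%). A match is a string of letters and was not shown to be bound in these cells.

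A few of these windows are shown for genes described below, written from 5′ to 3′ on the strand of the gene, with the motif letters of either strand in capitals. PGK1 (chrX:78103998-78104247, plus strand) stands for the glycolytic enzymes and has matches at -211, -202 and -183 bases from the start. BNIP3 (chr10:131981924-131982173, minus strand) held 6 matches, all between -143 and -104, with the palindrome CACGTG counted on each strand. CA9 (chr9:35673678-35673927, plus strand) had 1, at -18, and ADM (chr11:10304823-10305072, plus strand) 1, at -101. EGLN3 (chr14:33951075-33951324, minus strand), the member with the lowest log2 ratio, had no match in this window. Motifs were found in members of either direction: GPI, HK2 and ANKRD37, with log2 ratios of -0.26, -0.15 and -0.15, held motifs, and of the 5 members without one P4HA2 (0.11) and SLC2A1 (0.03) were above 0.
PGK1: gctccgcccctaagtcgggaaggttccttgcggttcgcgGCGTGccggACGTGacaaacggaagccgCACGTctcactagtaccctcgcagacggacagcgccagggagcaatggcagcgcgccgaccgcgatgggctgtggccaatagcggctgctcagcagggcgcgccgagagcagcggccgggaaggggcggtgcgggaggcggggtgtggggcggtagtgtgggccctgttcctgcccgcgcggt
BNIP3: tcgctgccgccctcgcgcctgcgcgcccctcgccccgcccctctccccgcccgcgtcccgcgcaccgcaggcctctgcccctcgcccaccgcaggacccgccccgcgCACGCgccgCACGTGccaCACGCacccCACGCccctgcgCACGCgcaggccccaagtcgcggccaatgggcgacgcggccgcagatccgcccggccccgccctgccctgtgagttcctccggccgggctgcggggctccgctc
CA9: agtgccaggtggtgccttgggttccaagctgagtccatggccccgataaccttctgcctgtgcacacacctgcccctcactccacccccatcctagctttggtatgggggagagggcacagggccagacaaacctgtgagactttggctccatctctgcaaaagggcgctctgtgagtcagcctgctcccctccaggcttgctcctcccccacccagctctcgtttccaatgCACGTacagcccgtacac
ADM: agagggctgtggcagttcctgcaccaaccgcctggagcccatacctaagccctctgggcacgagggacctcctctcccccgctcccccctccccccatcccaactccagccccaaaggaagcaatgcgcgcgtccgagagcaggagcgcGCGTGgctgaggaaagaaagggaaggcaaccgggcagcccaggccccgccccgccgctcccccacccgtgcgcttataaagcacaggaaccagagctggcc
EGLN3: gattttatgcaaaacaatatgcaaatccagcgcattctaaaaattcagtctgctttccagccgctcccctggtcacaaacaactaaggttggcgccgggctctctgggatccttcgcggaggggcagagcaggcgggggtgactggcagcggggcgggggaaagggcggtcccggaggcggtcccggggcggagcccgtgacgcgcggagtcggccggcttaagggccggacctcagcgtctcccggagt

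All 36 genes were expressed, with levels from 5.29 FPKM (ANKRD37) to 1635 FPKM (GAPDH) in shControl, and together they held 3.92% of the fragments in shControl and 4.04% in shFKBP9. None differed by 2-fold between the libraries. Of the 10346 protein-coding genes that reached 1 FPKM in a library, 0.213% were over 2-fold higher in shFKBP9 and 0.193% over 2-fold lower, so that few genes of any kind differed by that much. For each gene the difference is given on the log2 scale, as the level in shFKBP9 over that in shControl after 0.1 FPKM was added to each, and with exact 95% intervals made from the fragments. Over the 10346 genes the median log2 ratio was -0.02, the quartiles were -0.15 and 0.12, and 46.3% of the genes were above 0. The median was -0.04 for the glycolytic enzymes, -0.05 for the transporters and regulators and 0.17 for the other HIF targets. The first 2 medians lay inside the quartiles of all genes and the third above the upper quartile. These quartiles describe single genes and do not measure the spread of a list's median.

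**Figure D1:**
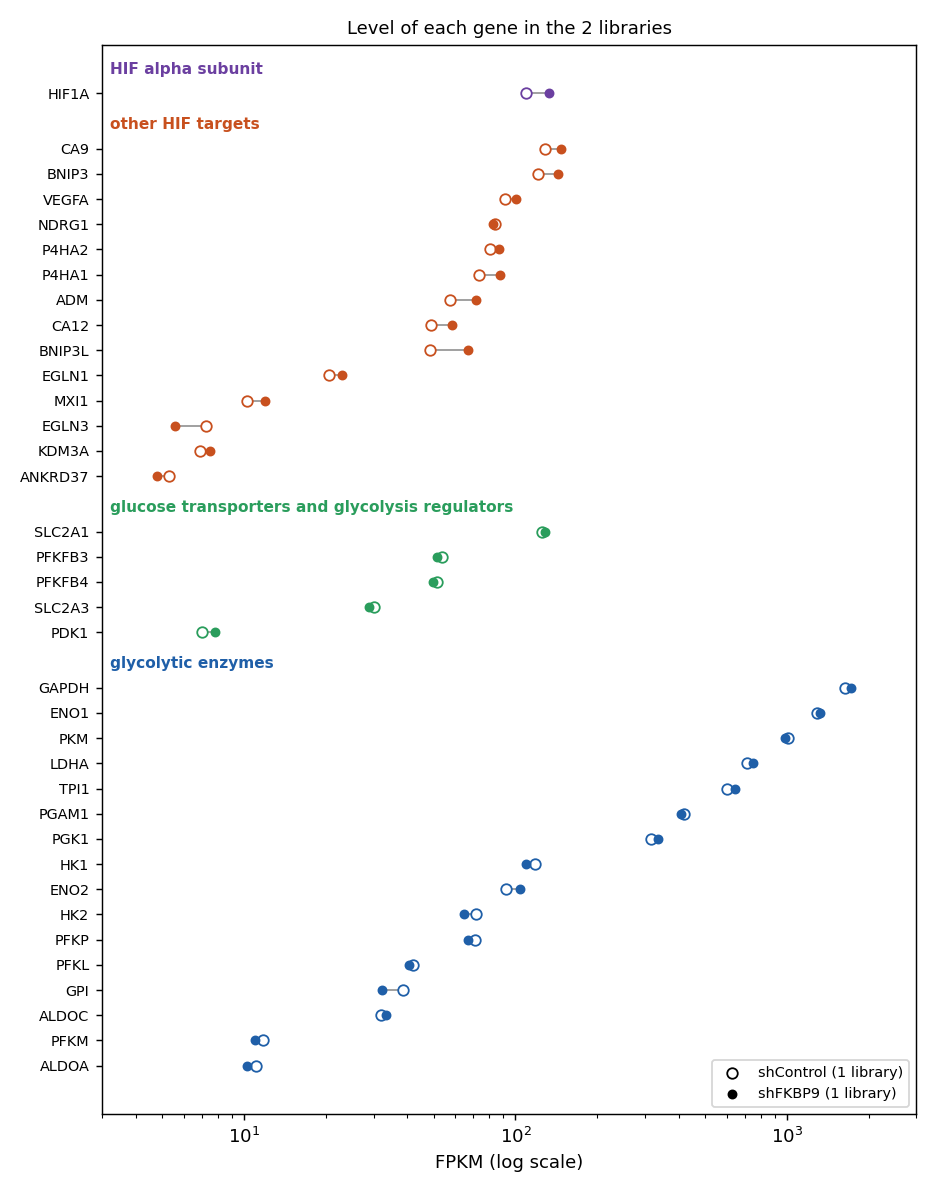
Level of each of the 36 genes in FPKM on a log scale, with the shControl library as an open circle and the shFKBP9 library as a filled one, ordered within role by the level in shControl. The shift within a gene is small beside the range between genes, which runs from 5.29 to 1635 FPKM in shControl, and 11 of the 14 other HIF targets have the filled circle to the right.

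An exact binomial test of the fragments, adjusted by Benjamini-Hochberg over all 17105 genes tested, compares the 2 libraries and not the conditions. It placed 18 members higher and 6 lower in shFKBP9 and left 12 uncalled. Over all genes tested, 9.93% were called higher and 11.8% lower. Since 35 of the 36 members had at least 1000 fragments in the libraries together, their counts are better read against the 6297 protein-coding genes of that depth, of which 18.9% were called higher and 23.3% lower. By role, the glycolytic enzymes had 6 higher and 5 lower of 16, the transporters and regulators 1 higher and 0 lower of 5, and the other HIF targets 10 higher and 1 lower of 14. At this depth small shifts are called, so size is the more useful measure. In the same 6297 genes 25.4% had a log2 ratio above 0.1 and 31.1% below -0.1, against 2 and 3 of the 16 glycolytic enzymes and 11 and 2 of the 14 other HIF targets. The intervals and the test cover counting error only. With a spread between replicates assumed at a dispersion of 0.01, a coefficient of variation of 10%, none of the 36 genes was called.

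**Figure D2:**
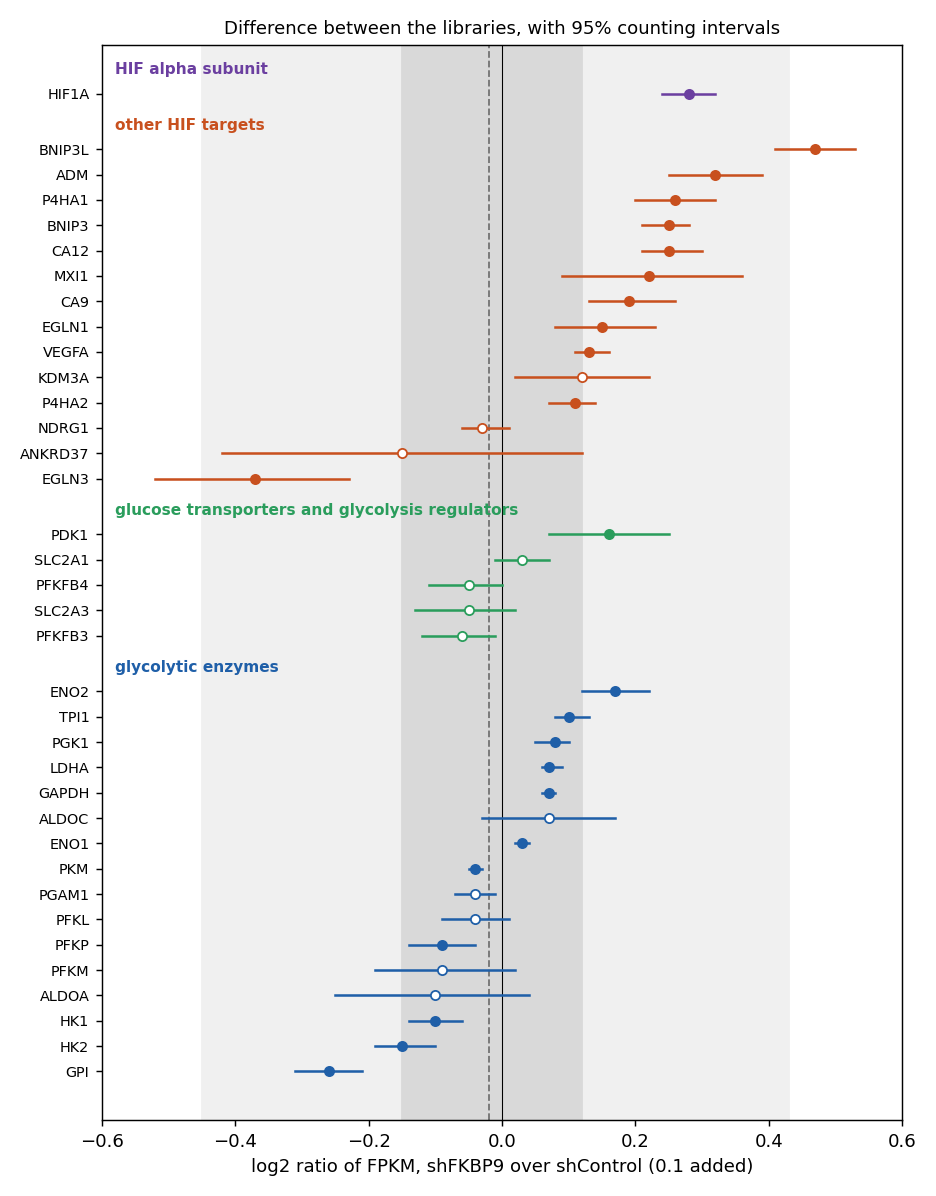
Log2 ratio, shFKBP9 over shControl, of each member, with the exact 95% counting interval as a bar; filled points passed the exact binomial test and open points did not. The dashed line is the median of 10346 protein-coding genes (-0.02), the dark band their quartiles (-0.15 to 0.12) and the light band their middle 95% (-0.45 to 0.43). BNIP3L at 0.47 is the member outside the light band, and EGLN3 at -0.37 is the lowest.

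The glycolytic enzymes as a group had near-equal levels in the libraries. Their summed level was 6468 FPKM in shControl and 6626 in shFKBP9, a log2 ratio of 0.03, and they held 3.21% and 3.26% of all fragments. Of the 16 genes 11 had a log2 ratio within 0.1 of 0, and the range was -0.26 to 0.17. Split by the order of the reactions, of the 9 genes of the preparatory steps, which spend ATP and split glucose into triose phosphates, 7 had a log2 ratio below 0, with a median of -0.09. Of the 7 genes of the later steps, which pay back ATP and make lactate, 5 were above 0, with a median of 0.07. Among all expressed protein-coding genes 46.3% were above 0. Both medians lay inside the quartiles of all genes, which describe single genes and not the median of a list. The summed levels of the 2 sets moved alike, from 994 to 1011 FPKM (log2 ratio 0.03) and from 5475 to 5615 FPKM (0.04). TPI1 carried the first of these sums, and without it the other 8 preparatory genes had 395 and 369 FPKM (-0.10). The split by step and the sum without TPI1 were chosen after the values had been seen.

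The hexokinases trap glucose in the cell as glucose 6-phosphate. HK1, the form found in most tissues, had 117.6 FPKM in shControl and 109.8 in shFKBP9, a log2 ratio of -0.10 (95% interval -0.14 to -0.06). HK2, the form that many tumours add and a known HIF target, had 71.5 and 64.6 FPKM, a log2 ratio of -0.15 (-0.19 to -0.10). Both were lower in shFKBP9 by about the same factor, and HK1 held 60.5% of the summed hexokinase FPKM in shControl and 61.3% in shFKBP9. GPI (ENSG00000105220, chromosome 19), which turns glucose 6-phosphate into fructose 6-phosphate, was the enzyme with the lowest ratio. It had 38.5 FPKM from 7453 fragments in shControl and 32.3 FPKM from 5915 fragments in shFKBP9, a log2 ratio of -0.26 (-0.31 to -0.21, adjusted p = 1.27e-22 by the exact binomial test), and 11.4% of expressed protein-coding genes lay below it.

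Phosphofructokinase commits the sugar to glycolysis, and its platelet-type gene PFKP was the most abundant of its genes at 71.0 FPKM in shControl and 66.6 in shFKBP9, a log2 ratio of -0.09 (-0.14 to -0.04). The liver-type gene PFKL had 41.8 and 40.6 FPKM, with -0.04 (-0.09 to 0.01), and the muscle-type gene PFKM 11.71 and 11.02 FPKM, with -0.09 (-0.19 to 0.02). Only PFKP among these was called lower. The aldolases split the sugar into its 2 trioses. ALDOC, known as the brain form, had 31.8 and 33.5 FPKM with a log2 ratio of 0.07 (-0.03 to 0.17), and ALDOA, the form of muscle and most other cells, had 11.1 and 10.3 FPKM with -0.10 (-0.25 to 0.04), from 785 and 692 fragments. Neither was called.

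The level of ALDOA has a limit that lies in the annotation. In GENCODE release 44, 89.8% of the exonic bases of its canonical transcript also belong to exons of AC093512.2, a gene model on the same strand that held 67 fragments in shControl and 61 in shFKBP9. How fragments that fall on 2 genes were treated is not given in the sources used here, and the part of this overlap in the level of ALDOA was not tested. CA9 shares 36.9% of its canonical transcript with ARHGEF39 (275 and 254 fragments) and ANKRD37 shares 54.7% with UFSP2 (623 and 569 fragments), both on the opposite strand, and PFKM shares 7.12% of its exonic bases, though none of its canonical transcript, with SENP1 (543 and 569 fragments), also on the opposite strand. The preparation kit named in the labels does not mark strand, so reads of such pairs cannot be told apart. Of the 36 members 6 shared over 10% of all their exonic bases with other genes of the table.

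The triose phosphates are brought together by TPI1, which had 599 FPKM in shControl and 643 in shFKBP9, a log2 ratio of 0.10 (0.08 to 0.13). GAPDH, which oxidises glyceraldehyde 3-phosphate and served as the reference gene of the RT-qPCR assays of the study, was the most abundant member at 1635 and 1718 FPKM, and ranked 14 and 12 among all genes. Its log2 ratio was 0.07 (0.06 to 0.08). PGK1, the first enzyme to return ATP, had 317 and 334 FPKM with 0.08 (0.05 to 0.10), and PGAM1, which moves the phosphate within 3-phosphoglycerate, had 416 and 406 FPKM with -0.04 (-0.07 to -0.01) and was not called (adjusted p = 0.0508, exact binomial test). TPI1, GAPDH and ENO2 lie close together on chromosome 12 of hg38, GAPDH at 6533927-6538374, TPI1 at 6867119-6870948 and ENO2 at 6913745-6923698, and all were higher in shFKBP9. Fragments counted on the separate copies of GAPDH came to 0.307% and 0.326% of its own count, and those on copies of TPI1 to 1.68% and 1.61%.

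Enolase makes phosphoenolpyruvate. ENO1, the general form, had 1291 FPKM in shControl and 1321 in shFKBP9, a log2 ratio of 0.03 (0.02 to 0.04), while ENO2, the form named for neurons, had 92.7 and 104 FPKM and the highest log2 ratio of the enzymes, 0.17 (0.12 to 0.22). The ratio of ENO2 to ENO1 thus moved by 0.14 (0.09 to 0.19) on the log2 scale, although ENO1 still held 92.6% of enolase FPKM in shFKBP9. PKM, pyruvate kinase, had 1012 and 985 FPKM with -0.04 (-0.05 to -0.03). LDHA, which turns pyruvate into lactate, had 710 and 747 FPKM with 0.07 (0.06 to 0.09), and it held 97.9% of lactate dehydrogenase FPKM in both libraries. Gene-level FPKM do not separate the PKM1 and PKM2 splice forms.

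**Figure D3:**
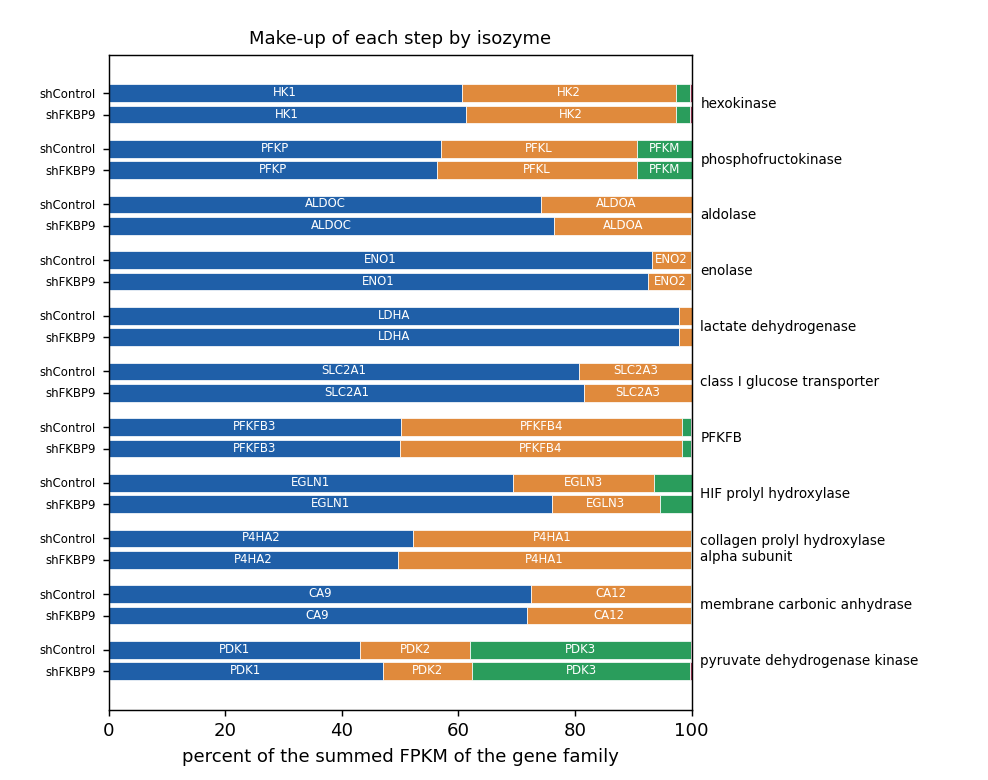
Percent of the summed FPKM of each gene family held by each of its genes, with shControl above shFKBP9 in each pair of bars. Most families have the same make-up in both libraries, as for lactate dehydrogenase with LDHA at 97.9% in each, and the HIF prolyl hydroxylases differ most, with EGLN1 at 69.3% in shControl and 76.1% in shFKBP9.

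Of the genes for glucose entry and the switches around glycolysis 1 was called, and 4 of the 5 had a log2 ratio within 0.1 of 0. All 5 had at least 1000 fragments, a depth at which 18.9% of protein-coding genes were called higher and 23.3% lower. SLC2A1 (GLUT1), the main glucose carrier of most tumour cells and a classic HIF target, had 125 FPKM in shControl and 128 in shFKBP9, a log2 ratio of 0.03 (-0.01 to 0.07). SLC2A3 (GLUT3), the high-affinity carrier of neurons, had 30.0 and 28.9 FPKM with -0.05 (-0.13 to 0.02), and SLC2A1 held 80.7% of their family in shControl and 81.6% in shFKBP9. PFKFB3 and PFKFB4 set the level of fructose 2,6-bisphosphate, the strongest activator of phosphofructokinase. They were expressed nearly equally, PFKFB3 at 53.8 and 51.5 FPKM and PFKFB4 at 51.6 and 49.7 FPKM, with log2 ratios of -0.06 (-0.12 to -0.01) and -0.05 (-0.11 to 0.00), and neither was called. PDK1, a kinase that shuts pyruvate dehydrogenase and so keeps pyruvate out of the mitochondria, was the member of this group called higher, with 7.002 FPKM (1887 fragments) and 7.82 FPKM (1998 fragments) and a log2 ratio of 0.16 (0.07 to 0.25). It held 43.1% of the FPKM of its kinase family in shControl (41.2% to 45.1%) and 47.0% in shFKBP9 (45.0% to 49.1%).

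The other HIF targets leaned towards shFKBP9. Of the 14 genes 11 had a log2 ratio above 0.1 and 9 lay above the upper quartile of expressed protein-coding genes, and their summed level was 785 FPKM in shControl and 899 in shFKBP9, a log2 ratio of 0.19. BNIP3L (NIX, ENSG00000104765), which together with BNIP3 tethers mitochondria to the autophagy machinery, had the highest ratio of all 36 genes. Its level was 48.4 FPKM from 3773 fragments in shControl and 67.0 FPKM from 4954 fragments in shFKBP9, 1.38-fold higher, with a log2 ratio of 0.47 (0.41 to 0.53, adjusted p = 2.13e-49 by the exact binomial test), which ranked 214 from the top among 10346 expressed protein-coding genes. BNIP3 (ENSG00000176171) had 121 and 143 FPKM with 0.25 (0.21 to 0.28). Both mitophagy genes were higher, and BNIP3L more so, by 0.22 (0.15 to 0.29) on the log2 scale.

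Genes for secreted signals and pH control were also higher. ADM (ENSG00000148926), the vasodilator peptide adrenomedullin, had 57.6 FPKM from 2833 fragments and 71.8 FPKM from 3351 fragments, a log2 ratio of 0.32 (0.25 to 0.39, adjusted p = 2.85e-16 by the exact binomial test). VEGFA, the main signal for new blood vessels, had 91.9 and 101 FPKM with 0.13 (0.11 to 0.16). The membrane carbonic anhydrases, which help export acid, were CA9 at 129 and 148 FPKM with 0.19 (0.13 to 0.26) and CA12 at 48.7 and 58.2 FPKM with 0.25 (0.21 to 0.30). CA9, in normal tissue a gene of few cell types and in tumours a marker of hypoxia, ranked 273 among all genes in shControl, and the overlap with ARHGEF39 given above applies to it.

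Among the genes acting on matrix, transcription and chromatin, P4HA1 and P4HA2 encode the catalytic subunits of the hydroxylase that stabilises the collagen helix. P4HA1 (ENSG00000122884) had 73.5 and 87.9 FPKM from 4119 and 4667 fragments, with a log2 ratio of 0.26 (0.20 to 0.32), and P4HA2 had 80.6 and 86.7 FPKM with 0.11 (0.07 to 0.14). The ratio of P4HA1 to P4HA2 was 0.912 in shControl and 1.01 in shFKBP9, where the order of the pair lay within counting error. MXI1, which opposes MYC, had 10.2 and 11.9 FPKM with 0.22 (0.09 to 0.36). The histone demethylase gene KDM3A had 6.91 and 7.52 FPKM with 0.12 (0.02 to 0.22) and was not called (adjusted p = 0.0616, exact binomial test). NDRG1, a stress-response gene widely used as a hypoxia marker, had 84.3 and 82.7 FPKM with -0.03 (-0.06 to 0.01). ANKRD37, the member with the fewest fragments (247 and 211), had 5.29 and 4.76 FPKM with -0.15 (-0.42 to 0.12), an interval wide enough to hold a shift in either direction.

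**Figure D4:**
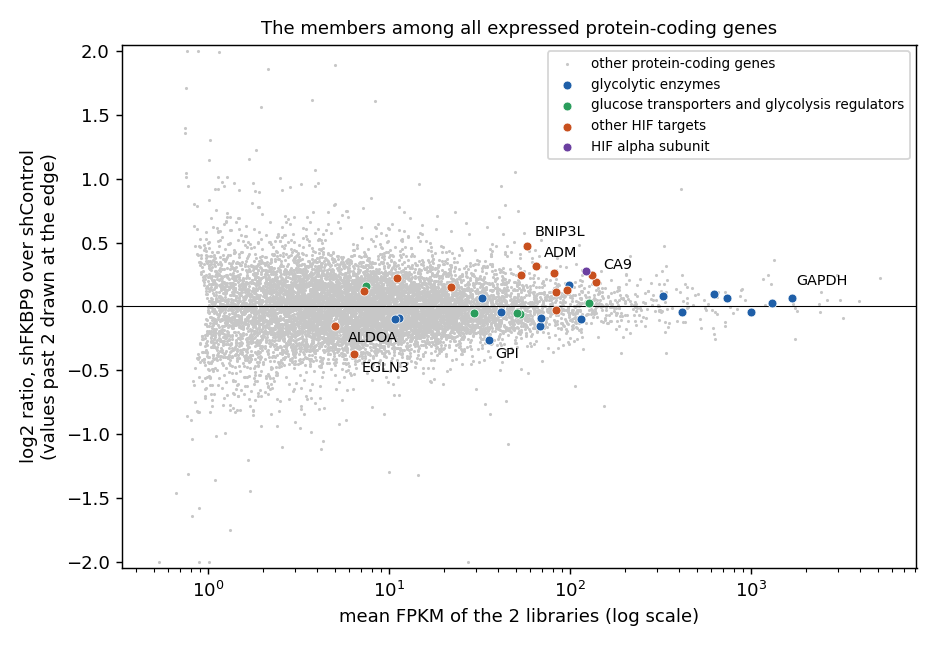
Log2 ratio, shFKBP9 over shControl, against the mean FPKM of the 2 libraries, on a log scale, for 10346 protein-coding genes that reached 1 FPKM (grey) and the members coloured by role. The glycolytic enzymes lie along 0 out to the most abundant genes, with GAPDH at 0.07, most other HIF targets lie above 0, and the members all lie within the cloud of other genes.

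HIF1A and EPAS1, the genes for both main HIF alpha subunits, were higher in shFKBP9. HIF1A (ENSG00000100644, chromosome 14 at 61695513-61748259), the alpha subunit whose protein is broken down when oxygen is present, had 109.6 FPKM from 10226 fragments in shControl and 133.3 FPKM from 11789 fragments in shFKBP9. The log2 ratio was 0.28 (0.24 to 0.32), 1.22-fold higher, and 92.1% of expressed protein-coding genes lay below it. EPAS1, the gene for the HIF-2 alpha subunit, had 39.3 and 45.0 FPKM with 0.19 (0.14 to 0.25), and the beta subunit gene ARNT 8.67 and 9.14 FPKM with 0.07 (-0.05 to 0.20). These are levels of mRNA, and the amount of HIF protein was not measured.

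The prolyl hydroxylases that act on HIF include HIF targets themselves, and EGLN1 and EGLN3 differed between the libraries in opposite directions. EGLN1 (PHD2), the main form in most cells, had 20.6 FPKM from 2710 fragments in shControl and 22.9 FPKM from 2859 fragments in shFKBP9, a log2 ratio of 0.15 (0.08 to 0.23). EGLN3 (PHD3, ENSG00000129521), usually among the genes most strongly raised by hypoxia, had 7.22 FPKM from 962 fragments and 5.57 FPKM from 704 fragments, a log2 ratio of -0.37 (-0.52 to -0.23, adjusted p = 3.19e-06 by the exact binomial test). It was the lowest member, and 4.81% of expressed protein-coding genes lay below it. The ratio of EGLN1 to EGLN3 was 2.85 in shControl and 4.11 in shFKBP9, a log2 difference of 0.53 (0.37 to 0.69), and a ratio within a library does not depend on the scaling between libraries. EGLN3 is 1 of 3 other HIF targets with a log2 ratio below 0, beside NDRG1 and ANKRD37, which were not called.

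Of 14 further genes of oxygen sensing and the HIF machinery, 4 were called higher and 3 lower, and their median was 0.04. All 7 were among the 11 genes with at least 1000 fragments, a depth at which 18.9% of protein-coding genes were called higher and 23.3% lower. Those higher were EPAS1 and 3 genes for parts of the VHL ubiquitin ligase, the scaffold CUL2 (6.26 and 8.27 FPKM, log2 ratio 0.40), ELOC (18.7 and 21.2 FPKM, 0.18) and RBX1 (38.5 and 42.4 FPKM, 0.14). VHL itself (16.5 and 16.9 FPKM, 0.04) and its adaptor ELOB (68.9 and 73.7 FPKM, 0.10) were not called. Those lower were the coactivators EP300 (10.8 and 8.79 FPKM, -0.29) and CREBBP (4.35 and 3.71 FPKM, -0.22), which HIF recruits, and CITED2 (23.2 and 20.4 FPKM, -0.19), which competes with HIF for them.

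Of 36 further HIF target genes 31 reached 1 FPKM, with a median log2 ratio of 0.05, and 13 were called higher and 5 lower, all among the 29 with at least 1000 fragments, where the shares over protein-coding genes were 18.9% and 23.3%. The hormone genes STC2 and STC1 had 0.75 (0.69 to 0.80) and 0.44 (0.38 to 0.50), and the collagen lysyl hydroxylase gene PLOD2 had 0.38 (0.34 to 0.41). The growth factor binding protein gene IGFBP3 was the lowest at 47.6 and 33.7 FPKM, with -0.50 (-0.57 to -0.43). Those called higher at 0.13 to 0.35 were TMEM45A, SLC6A8, INSIG2, AK4, ERO1A, LOX, HILPDA and the transferrin receptor gene TFRC, and the others called lower, at -0.25 to -0.09, were PPFIA4, KDM4B, LOXL2 and PLOD1. Lysyl oxidase LOX (108 and 124 FPKM, 0.20) and its relative LOXL2 (318 and 296 FPKM, -0.10), both of which crosslink collagen, thus fell on opposite sides of 0. Other targets lay near 0, among them DDIT4 (281 and 291 FPKM, 0.05, also called higher) and BHLHE40 (91.2 and 91.9 FPKM, 0.01).

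Among the branches that leave glycolysis, the pentose phosphate pathway makes NADPH and ribose. Of its 7 genes 4 were called lower and 0 higher, with a median of -0.11 and summed levels of 239 and 211 FPKM, beside 23.3% and 18.9% of protein-coding genes with at least 1000 fragments, a depth that 6 of the 7 had. Among them were TKT (39.4 and 31.0 FPKM, log2 ratio -0.35), PGD (67.1 and 54.1 FPKM, -0.31) and TALDO1 (42.6 and 39.4 FPKM, -0.11). Gluconeogenesis, glycogen and hexosamine genes split evenly, with 4 higher and 4 lower of 14 tested and a median of -0.03, and 11 of them had at least 1000 fragments, the depth of those same background shares. The glycogen branching enzyme gene GBE1 (41.9 and 51.3 FPKM, 0.29) was the highest and pyruvate carboxylase PC (12.8 and 10.7 FPKM, -0.26) the lowest. UGP2, GFPT1 and GPD2 were also higher, at 0.18 to 0.24, and the glycogen phosphorylases PYGB and PYGL (each at -0.19) and GFPT2 (-0.09) lower. GFPT1 and GFPT2 both open the hexosamine pathway, and GFPT2 was the more abundant, at 108 and 101 FPKM against 7.924 and 9.198.

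Among the carriers of lactate and pyruvate and other glucose transporters, 3 were called higher and 3 lower of 11 tested. Over all genes tested 9.93% were higher and 11.8% lower, and of protein-coding genes with at least 1000 fragments 18.9% and 23.3%. That depth was reached by 5 of these carriers and transporters, and in the lists below by 7 regulators, 1 isozyme and 4 glucose sensing genes. Every gene called higher in this paragraph had that depth. The lactate carrier gene SLC16A1 (MCT1) had 30.7 and 38.3 FPKM with 0.32 (0.25 to 0.39), and the hypoxia-linked lactate exporter gene SLC16A3 (MCT4) had 70.9 and 73.8 FPKM with 0.06, as did BSG, the chaperone of both carriers, at 191 and 199 FPKM. MPC1, a subunit of the carrier by which pyruvate enters mitochondria, had 7.32 and 5.50 FPKM with -0.41 (-0.73 to -0.10), and the glucose transporter genes SLC2A8 (4.91 and 3.93 FPKM, -0.31) and SLC2A12 (27 and 9 fragments) were the others called lower. Of the regulators of pyruvate dehydrogenase and related genes 2 of 11 tested were higher, the phosphatase gene PDP1 (9.45 and 12.0 FPKM, 0.34) and the subunit gene PDHB (16.5 and 18.3 FPKM, 0.15), and 0 were lower. PDP1 reverses what PDK1 does, and both were higher in shFKBP9. None of 6 tested further isozymes of the glycolytic steps was called. Of 4 genes of glucose sensing TXNIP was higher (138 and 150 FPKM, 0.12) and MLXIP lower (10.1 and 9.14 FPKM, -0.14).

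**Figure D5:**
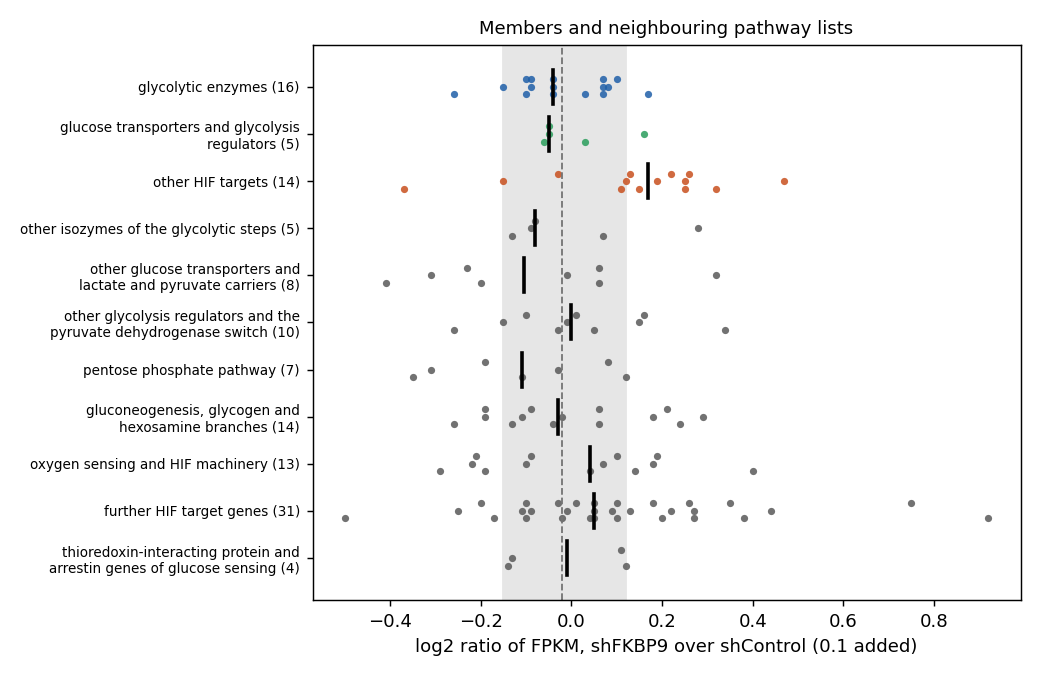
Log2 ratio, shFKBP9 over shControl, for each gene that reached 1 FPKM, by list, with the number of genes in brackets and the list's median as a black bar; the dashed line and the band are the median (-0.02) and quartiles (-0.15 to 0.12) of 10346 protein-coding genes. The median of the other HIF targets (0.17) is the one outside the band and the pentose phosphate median is -0.11. The band describes single genes and not the median of a list.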

How the data were processed

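SF-539 cells with the control shRNA or with shRNA to FKBP9 gave 1 RNA library each. Per the submitters' processing notes, HISAT2 2.0.5, featureCounts 1.5.0-p3 and edgeR were used with hg38. The annotation release and the handling of overlapping genes are not given in the sources used here. The authors deposited FPKM per gene, with 0 further columns of values per library.

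Multiplied by gene length, 100% of the FPKM were whole multiples of 1 step per library (tolerance 0.0001), which gave the fragments. Log2 ratios used FPKM with 0.1 added. Exact Clopper-Pearson intervals (95%) and two-sided exact binomial tests (at least 10 fragments together, Benjamini-Hochberg, adjusted p under 0.05) used the fragments and cover counting error only. Intervals for the ratio of 2 genes used the log scale. Promoter windows came from RefSeq and exons from GENCODE release 44. The calculations were tested on simulated libraries with counting error only, no spread between replicates and changes larger than those of any member. They were run in Python 3.11.15 (scipy 1.17.1, numpy 2.4.6, pandas 2.3.3, matplotlib 3.10.9).

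All 36 members were named, with genes of the pathway lists that passed the test (a few are not reported here), overlapping genes with at least 5% of a member's fragments, FKBP9 and markers. ARNT, VHL, ELOB and BHLHE40 are not covered by it and were added with their values in view. The members and lists were chosen with earlier results of these data known.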

Additional observations from a re-analysis of the deposited data

How the results depend on the processing

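No paired analysis was possible because there was 1 library per condition. No member passed 2-fold under any alternative tried. The median log2 ratio ranged from -0.057 to -0.022 for the glycolytic enzymes, from -0.071 to -0.036 for the transporters and regulators and from 0.156 to 0.191 for the other HIF targets over another addition to FPKM (1 or 0.01), scaling by the median ratio, rescaling to TPM, summed copies, summing ALDOA with AC093512.2 and other minimums. The last sum, the TPM test and the split by step were added after the data were seen. The median of the later steps was 0.088 when scaled by the median ratio and 0.053 in TPM. The exact binomial test called 24 members, 25 after scaling by the median ratio and 27 in TPM, where 17 were higher and 10 lower. A negative binomial exact test called 0 members at an assumed dispersion of 0.01, 0.04 or 0.16, and 58, 5 and 0 of all 17105 genes; this test adds an assumed spread between replicates that these data cannot measure. Of 109 values of single members under the alternatives in which the test was run again, 103 stayed on their side of the threshold, 5 passed it (PGAM1, PFKFB3, PFKFB4 and NDRG1 in TPM, lower, and KDM3A after scaling by the median ratio, higher), 1 lost it (ENO1 in TPM, at 0.01) and 0 changed direction.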
